A study of Mus musculus with 12 samples.

Results

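The genes described here are 10 enzymes and cofactors of DNA methylation and of histone-based transposon silencing, followed by gene identifier among 55416 annotated genes in mouse fetal ovary. All 10 identifiers were found on their stated chromosomes: Dnmt1 and Uhrf1 for maintenance methylation, Dnmt3a, Dnmt3b and Dnmt3l for new methylation, Tet1, Tet2 and Tet3 for oxidation of methylated cytosine, and Setdb1 and Trim28 for the H3K9 pathway. Of the 10, 9 passed the filter on low counts, and 7 had at least 1 row, 30 rows in all, among the 14447 rows of the immunoprecipitation table.

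RNA came from whole ovaries of mouse embryos at E16.5, late in gestation, pooled as 5 pairs of ovaries per sample. Fmr1 knockout (KO) ovaries and wild-type (WT) ovaries, the latter described as littermates for the input, gave 3 input libraries and 3 libraries each of RNA pulled down by anti-FMRP antibody, FMRP being the Fmr1 product, which binds RNA. This last assay is RNA immunoprecipitation sequencing (RIP), and its KO libraries stand for what the antibody recovers from ovaries labelled as knockout for its target. The strain label, B6.129P2-Fmr1tm1Cgr/J, is the same for KO and WT samples, no agent was given, and the labels do not say whether KO females carried 1 or 2 altered X alleles. The input libraries held 18880238 to 25707718 counted reads. Fmr1 itself had 85.6, 123 and 93.4 CPM (reads scaled to a common library size) in the KO libraries and 204, 213 and 221 CPM in the WT libraries (log2 change -1.08, SE 0.11, adjusted p = 0.00775, edgeR), so the targeted transcript fell but reads of it remained in KO. The ovary's own cell types were present: 4 of the 7 germ cell markers (Ddx4, Dazl, Sycp3 and Sycp1) and the 4 pregranulosa markers (Foxl2, Wnt4, Fst and Amhr2) lay between 43.9 and 110.5 CPM in WT. The other germ cell markers were lower, Stra8 at 4.28, Figla at 3.92 and Nobox at 0.606 CPM, and the Sertoli markers Sox9 and Amh were at 10.1 and 0.872 CPM.

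Cytosine methylation at CpG dinucleotides keeps retrotransposons and many germline genes silent. UHRF1 binds hemimethylated DNA after replication and brings in DNMT1, which copies the pattern to the new strand. DNMT3A and DNMT3B methylate unmodified DNA, and DNMT3L, which has no catalytic activity, stimulates them. TET proteins oxidise methylcytosine as a step towards its removal. SETDB1, recruited by TRIM28 and its KRAB zinc finger partners, writes H3K9 trimethylation on retrotransposons. Primordial germ cells lose most of their methylation, and female germ cells, in meiotic prophase at this age, regain it in oocyte growth after birth, whereas male germ cells regain it before birth. The libraries are of whole ovary, so each value is a mixture of germ cells and somatic cells, and fewer cells of a type cannot be told apart from less RNA per cell.

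Levels were compared between genes as CPM per kilobase of exon. Trim28 was the most abundant of the 10 at 69.8 ± 1.29 in WT (SD, n = 3), above 97.6% of tested genes, whose median was 2.92. Dnmt3a came next at 23.1 ± 0.423, followed by Dnmt1 at 17.2 ± 2.16 and Setdb1 at 14.7 ± 0.792 (SD, n = 3 each). The WT values of Dnmt1 and Setdb1 overlapped, although Dnmt1 was the higher of the pair in each of the 6 libraries. Tet3 at 9.93 ± 0.168 and Uhrf1 at 9.43 ± 1.59 also overlapped, with Tet3 higher in only 2 of 6 libraries, so these neighbours had no settled order. Tet1 at 6.09 ± 0.181 stood above Tet2 at 5.37 ± 0.387 in 6 of 6 libraries. Dnmt3b was low at 1.93 ± 0.323, and Dnmt3l, at 0.0825 ± 0.0115, was lower by a further 23.4-fold. The new-methylation enzymes of this ovary were represented mostly by Dnmt3a RNA: per kilobase, Dnmt3a exceeded Dnmt3b by 12.2 ± 2.32-fold in WT and 10.8 ± 2.21-fold in KO (mean ± SD of 3 libraries; two-sided exact permutation p = 0.5). Counts per gene do not separate transcript forms, so the oocyte and somatic forms of Dnmt1 and the long and short forms of Dnmt3a are summed.

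**Figure D1:**
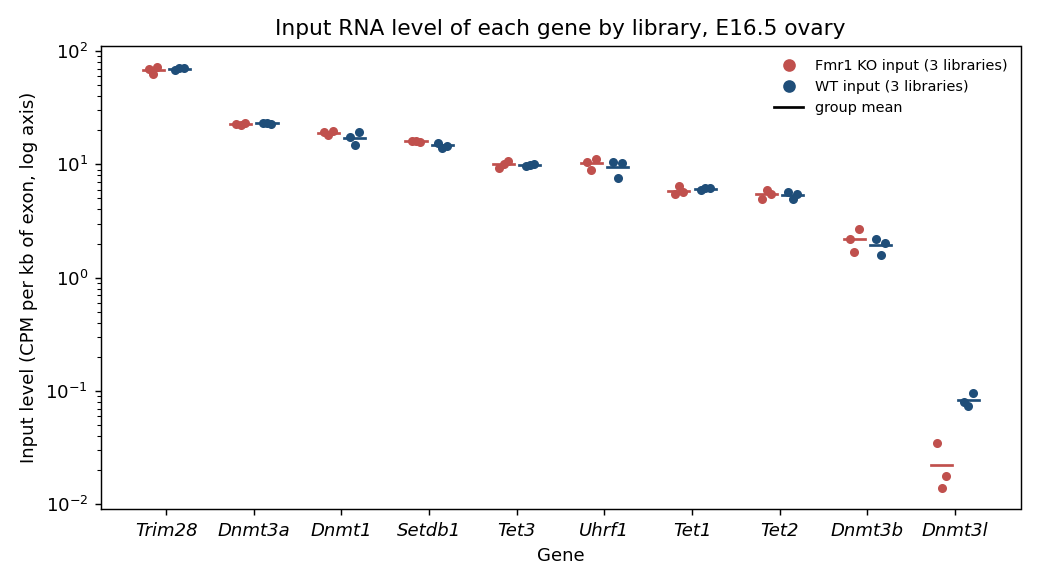
Input level of each gene in CPM per kilobase of exon, on a log axis, in the 3 KO and 3 WT input libraries (points) with the group mean (line). Trim28 lies highest and Dnmt3l lowest, and KO and WT points intermingle for every gene but Setdb1 and Dnmt3l.

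Between genotypes, none of the 9 tested genes passed (edgeR quasi-likelihood fit, p adjusted by Benjamini-Hochberg over 23698 genes, threshold 0.05), where 0.0422% of all tested genes did. None reached an unadjusted p of 0.05 either, against 5.90% of all tested genes, and DESeq2 called 0. The estimates were positive for 6 and negative for 3, from -0.049 to 0.17 on the log2 scale, with a median of 0.031 beside -0.0020 over all tested genes. These values bound the differences rather than show that there are none: across the 9 genes, the 95% intervals ran from 0.868 to 1.46 times the WT level.

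The maintenance genes came first. Dnmt1 (ENSMUSG00000004099, chromosome 9, 20818505 to 20871184, minus strand, 7377 exonic bases) had 143, 133 and 144 CPM in the KO libraries and 129.5, 110.1 and 142 CPM in the WT libraries. The lowest value was that of WT replicate 2, and the groups overlapped. Mean and SD over 3 libraries were 139.9 ± 5.91 CPM in KO against 127 ± 16 in WT (edgeR, log2 change 0.14, SE 0.079, adjusted p = 0.900), and the interval ran from 0.981 to 1.23 times WT. The log2 change was 0.045 without WT replicate 2 and 0.22 without WT replicate 3. Uhrf1 (ENSMUSG00000001228, chromosome 17, 56610321 to 56630486, plus strand, 4259 exonic bases) had 44.6, 38.1 and 47.9 CPM in KO and 44.4, 32.3 and 43.7 CPM in WT. Here too WT replicate 2 was lowest, with KO replicate 2 next (log2 change 0.11, SE 0.12, adjusted p = 0.976). The ratio of Dnmt1 to Uhrf1 per kilobase was 1.87 ± 0.144 in KO and 1.84 ± 0.143 in WT (mean ± SD of 3 libraries; two-sided exact permutation p = 0.800), so the proportion of the pair did not differ between genotypes beyond its spread.

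Among the new-methylation genes, Dnmt3a (ENSMUSG00000020661, chromosome 12, 3856007 to 3964443, plus strand, 16642 exonic bases) had 381, 369.7 and 389.6 CPM in KO and 387, 389 and 376 CPM in WT. The 6 libraries lay close together and the groups overlapped (log2 change -0.013, SE 0.057, adjusted p = 0.991), with an interval of 0.913 to 1.08 times WT, the narrowest of the 9 tested genes. Dnmt3b (ENSMUSG00000027478, chromosome 2, 153491370 to 153529650, plus strand, 5106 exonic bases) had 11.1, 8.63 and 13.7 CPM in KO and 11.2, 8.03 and 10.3 CPM in WT. Its lowest libraries were again WT replicate 2 and KO replicate 2, and its interval was the widest, 0.872 to 1.46 times WT (log2 change 0.17, SE 0.18, adjusted p = 0.976). The log2 change was 0.0040 without KO replicate 3 and 0.33 without KO replicate 2.

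Dnmt3l (ENSMUSG00000000730, chromosome 10, 77877781 to 77899456, plus strand, 2988 exonic bases) was at the edge of detection. It had 2, 1 and 1 reads in the KO libraries and 6, 5 and 6 reads in the WT libraries, so every KO library was below every WT library. In genes left out by the same filter, with a read total within 2-fold of that of Dnmt3l, 5.00% showed this pattern, and among tested genes it was 5.69%. Summed over libraries there were 4 reads in KO and 17 in WT, a KO to WT ratio of 0.266 after scaling to total reads (95% exact binomial interval 0.0651 to 0.816, counting error only). Without the filter it did not pass (log2 change -1.84, SE 0.92, adjusted p = 0.908, edgeR), and 67 of its exonic bases are shared with a gene on the opposite strand, which these counts cannot separate.

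The TET genes differed little between libraries. Tet1 (ENSMUSG00000047146, chromosome 10, 62640349 to 62744775, minus strand, 15457 exonic bases) had 84.7, 100.2 and 87.8 CPM in KO and 91, 96.3 and 95 CPM in WT, with KO replicate 2 highest and KO replicate 1 lowest (log2 change -0.049, SE 0.074, adjusted p = 0.979). Tet2 (ENSMUSG00000040943, chromosome 3, 133169440 to 133250900, minus strand, 16870 exonic bases) lay between 83.3 and 100.4 CPM over the 6 libraries (log2 change 0.031, SE 0.078, adjusted p = 0.986). Tet3 (ENSMUSG00000034832, chromosome 6, 83339355 to 83436066, minus strand, 16695 exonic bases), the most abundant of the family, had 167 ± 12 CPM in KO and 166 ± 2.80 CPM in WT (± SD, 3 libraries each; log2 change 0.0095, SE 0.066, adjusted p = 0.995). The intervals of the 3 genes, 0.868 to 1.08 times, 0.913 to 1.14 times and 0.916 to 1.11 times the WT level, all included no change.

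Setdb1 (ENSMUSG00000015697, chromosome 3, 95230836 to 95264513, minus strand, 6853 exonic bases) had 111, 110.4 and 108 CPM in KO and 107, 96 and 99.3 CPM in WT. All 3 KO values lay above all 3 WT values, a pattern that 5.22% of tested genes showed in this direction (10.9% in either) and that 1 of the 9 tested genes showed here. The difference was small and did not pass (log2 change 0.13, SE 0.068, adjusted p = 0.887), with an interval of 0.990 to 1.20 times WT. Of its exonic bases, 4.73% are shared with 2 opposite-strand genes, 1 of which had 8576 reads over the 6 libraries. Trim28 (ENSMUSG00000005566, chromosome 7, 12733041 to 12764962, plus strand, 4158 exonic bases) had 289.8, 259 and 301 CPM in KO and 284, 294 and 292 CPM in WT. KO replicate 2 was the lowest library and the others overlapped (log2 change -0.036, SE 0.064, adjusted p = 0.981).

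**Figure D2:**
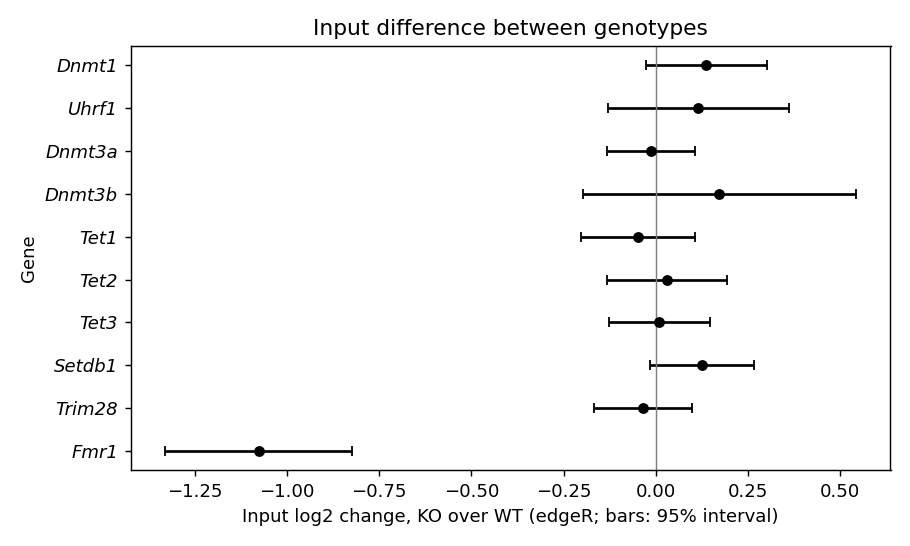
Input log2 change, KO over WT, from edgeR with 95% intervals, for the 9 tested genes and Fmr1. The 9 intervals all include 0, while that of Fmr1 lies around -1.08.

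Cell type markers were read beside these values. The 7 germ cell markers, of which Ddx4, Dazl, Sycp3 and Sycp1 were abundant, summed to 277 to 341 CPM in KO and 207 to 282 CPM in WT, with KO replicate 2 highest and WT replicate 1 lowest. None passed the test (edgeR), and the median log2 change of the 7 was 0.26. At an unadjusted p under 0.05, Sycp3 and Ddx4 were higher in KO and Figla lower, where 2.90% of all tested genes were higher and 3.00% lower. Their log2 changes were 0.24 (Sycp3, SE 0.091, adjusted p = 0.698), 0.33 (Ddx4, SE 0.14, adjusted p = 0.810) and -0.87 (Figla, SE 0.29, adjusted p = 0.610). The 4 proliferation markers Mki67, Top2a, Pcna and Mcm2 summed to 610.1 to 644 CPM in KO and 536 to 693 CPM in WT, with WT replicate 2 lowest. Stromal collagens and Pdgfra (11772 to 13244 CPM in KO and 11008 to 14488 CPM in WT), macrophage (81.5 to 89.3 CPM in KO and 77.6 to 88.8 CPM in WT) and endothelial markers (256 to 287 CPM in KO and 276 to 297 CPM in WT) overlapped between genotypes in their sums. Of the 3 endothelial markers, Cdh5 was lower in KO at an unadjusted p under 0.05, with 82.4 ± 4.65 CPM in KO and 93.8 ± 9.15 in WT (log2 change -0.19, SE 0.079, adjusted p = 0.776). Sums also overlapped for pregranulosa (317 to 345 CPM in KO and 314 to 323 CPM in WT), Sertoli (10.2 to 11.7 CPM in KO and 10.6 to 11.6 CPM in WT) and mesonephros markers (29.9 to 34.1 CPM in KO and 31.5 to 36.7 CPM in WT), and no marker was at 0 in all libraries.

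The closest likeness between members from library to library was that of Uhrf1 with Dnmt3b and with Dnmt1, although no relation passed adjustment. Over the 6 input libraries, on log2 CPM, Pearson's r of Uhrf1 and Dnmt3b was 0.934 (exact permutation p = 0.00278, adjusted p = 0.150) and Spearman's rho was 0.943 (exact permutation p = 0.0167, adjusted p = 0.787). That r was 0.988 without the 2 libraries farthest from the Uhrf1 median, KO replicate 2 and WT replicate 2. For Dnmt1 and Uhrf1, Pearson's r was 0.893 (exact permutation p = 0.0347, adjusted p = 0.791) and Spearman's rho was 0.829 (exact permutation p = 0.0583, adjusted p = 0.787). Here the libraries left out were those farthest from the Dnmt1 median, WT replicates 1 and 2, and r was 0.970 without them. KO replicate 2, next to lowest in Uhrf1, stayed in. The r of this pair without KO replicate 2 and WT replicate 2 was not computed, so its dependence on those libraries is not known. The relations of Uhrf1 with Dnmt3b and with Dnmt1 are 2 of 54 computed. Of the 54, 3 had an unadjusted p under 0.05 for r and 0 an adjusted one, and the remaining one joined Dnmt3a and Trim28. With 6 libraries the smallest possible exact permutation p was 0.00139, so a lone relation, however close, could not have passed adjustment over 54. With the summed proliferation markers, Pearson's r of Dnmt1 was 0.758 (exact permutation p = 0.114, adjusted p = 0.791) and Spearman's rho was 0.0857 (exact permutation p = 0.919, adjusted p = 0.955). That relation rested on single libraries, since r was -0.876 without WT replicates 2 and 3, the 2 farthest from the median of the marker sum. With the summed germ cell markers, Pearson's r of Uhrf1 was -0.381 (exact permutation p = 0.411, adjusted p = 0.791) and Spearman's rho was -0.486 (exact permutation p = 0.356, adjusted p = 0.936). Without KO replicate 2 and WT replicate 1, the 2 farthest from the median of that sum, r was -0.475. The part of cell type proportions in these patterns was not tested further.

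**Figure D3:**
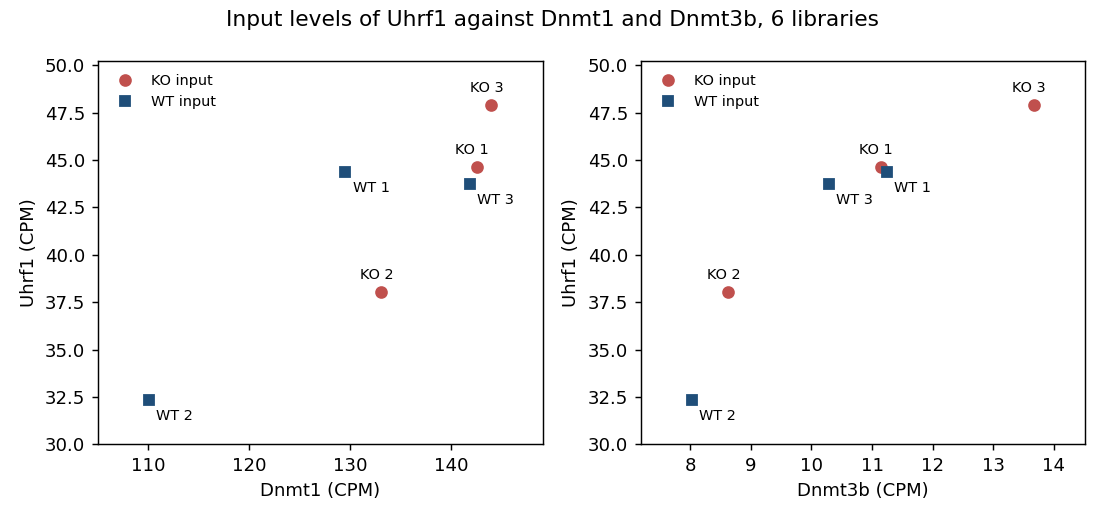
Uhrf1 input level (CPM) against Dnmt1 (left) and Dnmt3b (right), 1 point per library, labelled by genotype and replicate. WT replicate 2 and KO replicate 2 have the lowest Uhrf1 values, and KO replicate 3 has the highest.

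The promoters of Dnmt1 and Uhrf1, the partners of maintenance methylation, are shown because theirs were the windows with a match to the motif described next. The RefSeq table (GRCm38.p6, 250 bases before to 50 after each start) held 17 windows for the 10 genes. They were searched on both strands for the binding motif of E2F, a family of cell cycle transcription factors, in its 4 spellings TTTCCCGC, TTTCGCGC, TTTGCCGC and TTTGGCGC, a motif chosen after the values were seen. Of the 17 windows, 2 held a match, 1 of Dnmt1 and 1 of Uhrf1, while 2.26% of all 32851 windows of this length did. The sequences run 5′ to 3′ on the gene's strand, with matches in capitals. Dnmt1 has 2, a reverse complement that starts 219 bases before the start site and a direct one after it, and Uhrf1 has 1.
Dnmt1, chr9:20952574-20952873, minus strand: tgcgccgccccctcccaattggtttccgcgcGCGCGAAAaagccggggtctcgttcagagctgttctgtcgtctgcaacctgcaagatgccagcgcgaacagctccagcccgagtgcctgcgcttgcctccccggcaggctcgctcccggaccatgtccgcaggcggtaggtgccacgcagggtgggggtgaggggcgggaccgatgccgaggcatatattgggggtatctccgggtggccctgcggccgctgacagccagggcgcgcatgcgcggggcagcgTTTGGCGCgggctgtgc
Uhrf1, chr17:56304063-56304362, plus strand: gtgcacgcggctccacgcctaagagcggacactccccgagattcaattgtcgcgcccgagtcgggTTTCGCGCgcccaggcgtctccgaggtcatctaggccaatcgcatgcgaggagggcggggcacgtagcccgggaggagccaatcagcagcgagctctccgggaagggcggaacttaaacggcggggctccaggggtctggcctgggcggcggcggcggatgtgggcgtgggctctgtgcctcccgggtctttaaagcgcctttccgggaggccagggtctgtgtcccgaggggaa
Each of these windows held 33 CpG dinucleotides, where the median of all windows was 7. All 4 spellings contain a CpG, and the 2.26% was not matched for CpG content, so it is not a like comparison. The other windows of Dnmt1, with 2 and 12 CpG, and of Uhrf1, with 12, held no match. The 3 Dnmt3l windows held 6, 4 and 3, the Tet2 window 57, the Dnmt3b window 30 and the first Dnmt3a windows 46 and 47. A match describes letters only, and methylation of these promoters was not measured. The promoter coordinates are of another annotation than those of the count files and are not to be set beside them.

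The immunoprecipitation was read next, as the question of whether WT ratios exceeded those of KO, the control for the antibody. The deposited values are fold enrichments per row, several rows for some genes, and neither their reference nor the place of a row on its transcript is given in the sources used here. Rows are numbered by falling mean over the 6 libraries. Dnmt1 had 9 rows, Dnmt3a 7, Setdb1 6, Trim28 3, Uhrf1 and Tet1 2 each and Tet3 1. Over the 30 rows the median of the row means was 2.18, beside 1.77 over all rows. The Fmr1 row, too low to enter the test, had 0.422 ± 0.0294 in KO and 1.39 ± 0.0449 in WT (± SD, 3 libraries each). Fmr1 input was itself lower in KO, and whether the ratio divides by input is not known, so that row was not taken as a check of the antibody. None of the 30 rows passed (limma, smallest adjusted p = 0.473), and the share of all 14365 tested rows that passed was 0%. At an unadjusted p under 0.05, 2 of the 30 rows stood out, beside 8.85% of all tested rows. In 1 of them WT was the higher (5.98% of all tested rows) and in the other KO (2.88%).

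The KO mean exceeded 1 in 29 of the 30 rows. The share of all rows with a KO mean above 1 was not computed. Of all 14447 rows, 14365 had a mean of at least 1 over the 6 libraries, KO and WT together. KO ratios above 1 were not particular to these genes, since the median ratios of the KO libraries over all rows were 1.72, 1.78 and 1.74. The KO mean exceeded the WT mean in 21 of the 30, where 50.9% of all rows had the higher mean in KO and 49.1% in WT. The median ratio of WT to KO means was 0.909, beside 0.996 over all rows. Rows of 1 gene share their RNA, so the 30 rows stand for 7 genes only. The groups did not overlap in 2 rows that were higher in WT and 2 that were higher in KO, while 8.39% and 6.77% of tested rows had such patterns, 15.2% together.

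**Figure D4:**
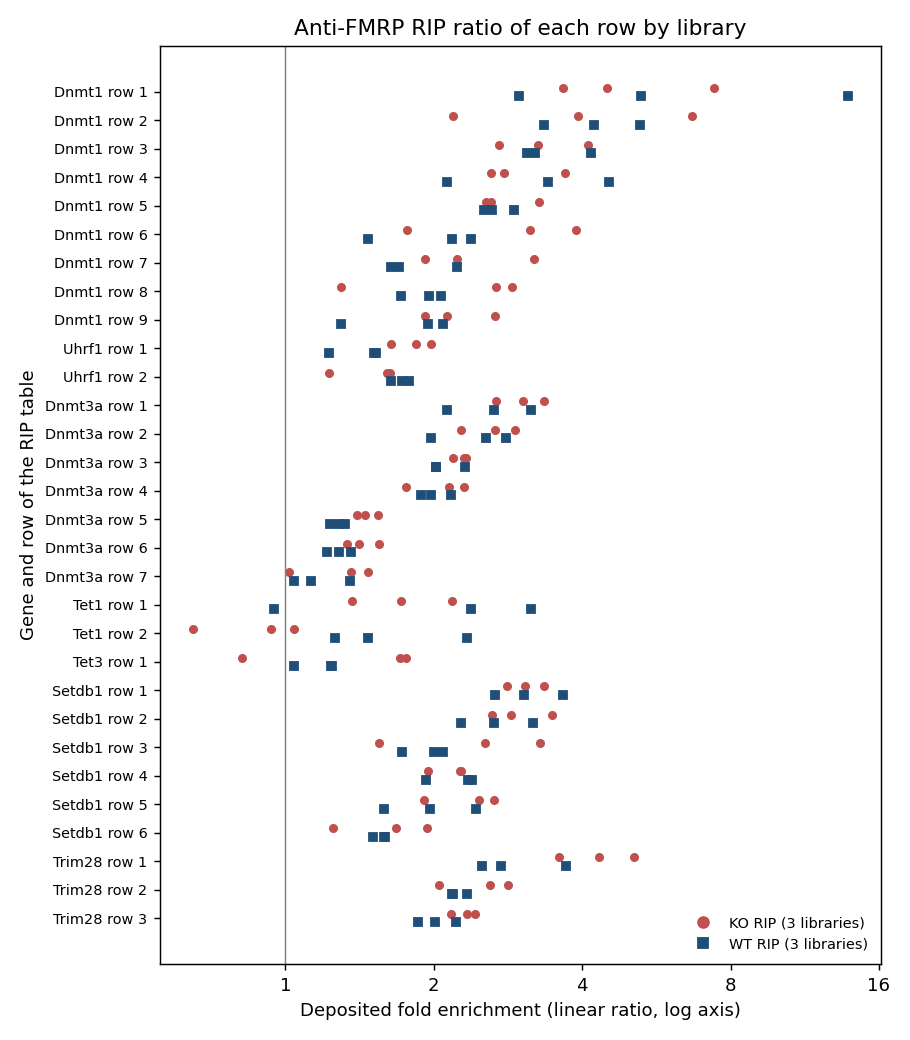
Deposited fold enrichment of each of the 30 rows, on a log axis, in the 3 KO (circles) and 3 WT (squares) RIP libraries, with a line at 1. The groups overlap in all but 4 rows, and the Dnmt1 rows reach the highest values.

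Dnmt1 had the rows with the highest ratios. Its row 1 had 7.42, 3.65 and 4.48 in KO and 5.26, 2.98 and 13.9 in WT. WT replicate 3 was far above the other WT libraries, and WT replicate 2 was the lowest of all (log2 difference 0.26, SE 0.51, adjusted p = 0.919, limma). Row 2 had 4.27 ± 2.27 in KO and 4.27 ± 0.946 in WT (± SD, 3 libraries each), nearly the same mean with more spread in KO. Row 6 had 3.14, 1.77 and 3.89 in KO and 1.47, 2.17 and 2.38 in WT, the lowest WT to KO ratio of means of the 30, 0.685, with overlapping groups (log2 difference -0.36, SE 0.24, adjusted p = 0.721, limma). Over the 9 rows, 4 had the higher mean in WT and 5 in KO, and the row means ran from 2.01 to 6.28. Rows of this gene therefore differed more in their mean than the genotypes did within any row.

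Uhrf1 gave opposite orders in its 2 rows. Row 1 had 1.64, 1.98 and 1.84 in KO and 1.22, 1.51 and 1.53 in WT, all KO libraries above all WT libraries (log2 difference -0.22, SE 0.092, adjusted p = 0.557, limma). Row 2 had 1.22, 1.63 and 1.61 in KO and 1.63, 1.73 and 1.78 in WT, all WT libraries above all KO libraries, though KO replicate 2 and WT replicate 1 almost met (log2 difference 0.13, SE 0.091, adjusted p = 0.731, limma). The gene therefore had no single direction.

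For Dnmt3a, the most abundant DNA methyltransferase gene of the members, all 7 rows had the higher mean in KO, with WT to KO ratios from 0.874 to 0.970. Row 1, the highest, had 3.03, 2.68 and 3.35 in KO and 2.65, 2.13 and 3.15 in WT, overlapping (log2 difference -0.15, SE 0.16, adjusted p = 0.832, limma). Row 5 had 1.45, 1.39 and 1.54 in KO and 1.28, 1.32 and 1.23 in WT. It was the one row of the gene without overlap, with means of 1.46 ± 0.0737 and 1.28 ± 0.0444 (SD, n = 3 each; log2 difference -0.11, SE 0.068, adjusted p = 0.698, limma). The direction held for all 7 rows without centring and with quantile normalization, but rows 2 and 4 changed sign when 1 library was left out (row 2 without WT replicate 1, row 4 without KO replicate 1).

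Tet1 was the gene with the largest ratio of WT to KO, in 1 of its 2 rows. Row 2 had 0.649, 0.934 and 1.04 in KO and 1.47, 2.34 and 1.262 in WT. All 3 WT libraries lay above all 3 KO libraries, and this was the only one of the 30 rows with a KO mean under 1. The means were 0.874 ± 0.202 and 1.69 ± 0.572 (SD, n = 3 each; two-sided exact permutation p = 0.1, and 3 libraries against 3 cannot give a smaller one), a ratio of 1.93, the largest of the 30. The difference did not pass over all rows (log2 difference 0.51, SE 0.15, adjusted p = 0.473, limma), and the log2 difference with 1 library left out ran from 0.34 to 0.62. Its size follows the pseudocount added to the ratio, at 0.86 with 0.1 and 0.10 with 10, and it passed with neither. Row 1 of Tet1 had 1.37, 2.18 and 1.72 in KO and 2.38, 3.15 and 0.948 in WT, where WT replicate 3 was the lowest of the 6 libraries and the other WT libraries the highest (log2 difference 0.14, SE 0.26, adjusted p = 0.915, limma). Tet1 input was also slightly higher in WT, well within its spread (90.9 ± 8.22 CPM in KO and 94.1 ± 2.80 CPM in WT, SD, n = 3 each). Tet3 had 1 row with 1.71, 1.76 and 0.818 in KO and 1.04, 1.24 and 1.24 in WT, in which KO replicate 3 stood below the rest (log2 difference -0.13, SE 0.16, adjusted p = 0.848, limma).

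Setdb1 and Trim28 had row means above the median of all rows in 8 of their 9 rows, and the WT mean was the higher in 2 of them. For Setdb1 the 6 row means ran from 1.59 to 3.10 and the WT to KO ratios from 0.788 to 1.03, with overlap in each row. Its row 1 had 2.82, 3.35 and 3.06 in KO and 2.66, 3.05 and 3.66 in WT (log2 difference 0.012, SE 0.16, adjusted p = 0.993, limma). For Trim28 all 3 rows had the higher mean in KO. Row 1 had 3.59, 4.32 and 5.10 in KO and 3.70, 2.73 and 2.51 in WT, where only WT replicate 1 reached into the KO range (log2 difference -0.42, SE 0.20, adjusted p = 0.598, limma). The direction of the 3 Trim28 rows held with each library left out, without centring and with quantile normalization, and none of them passed in any of these fits.

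**Figure D5:**
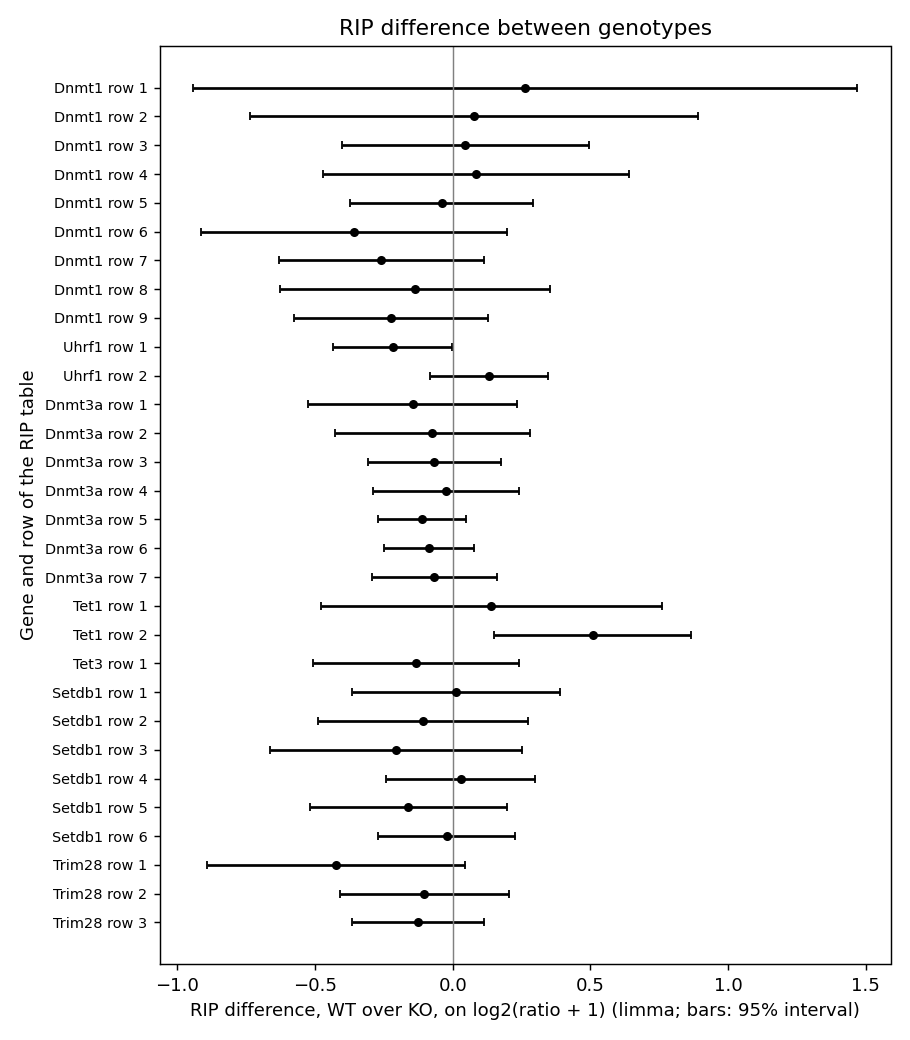
RIP difference, WT over KO, on the log2(ratio + 1) scale with 95% intervals from limma, for the 30 rows. The intervals of 28 rows include 0; that of Tet1 row 2 lies above it and that of Uhrf1 row 1 below it, before adjustment over all rows.

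Dnmt3b, Dnmt3l and Tet2 had no row. Of the 23698 genes tested in the input, 29.6% had at least 1 row. Among genes within 2-fold of Tet2 in WT CPM, 71.6% of the 4035 had one, so Tet2 was among a minority at its level. For Dnmt3b the share was 23.2% of the 5154, and for Dnmt3l 2.99% of the 1036, so that most genes as low as these had none. Tet1, at nearly the CPM of Tet2, had 2 rows. How rows were chosen is not known, so a missing row does not show that a transcript was not recovered.

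Other genes of the same pathways were listed with these 10. Of 9 further genes of DNA methylation and its readout (Hells, Dppa3, Tdg, Mbd1 to Mbd4, Usp7 and Zfp57), 8 were tested and 0 passed (edgeR). At an unadjusted p under 0.05, 1 was higher in KO and 0 lower, where 2.90% of all tested genes were higher and 3.00% lower, and the list's median log2 change was -0.038. That gene was Hells, a chromatin remodeller needed for methylation of repeats, with 117 ± 11.6 CPM in KO and 96 ± 3.09 in WT (log2 change 0.29, SE 0.075, adjusted p = 0.357). Dppa3, which encodes a protein that hinders UHRF1 in oocytes, had only 0.231 CPM in WT and did not enter the test.

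Another list held 13 genes of H3K9 methylation, heterochromatin and histone demethylation. Among them were the SETDB1 cofactor gene Atf7ip and the HP1 genes Cbx1, Cbx3 and Cbx5. All 13 were tested, 0 passed and 0 had an unadjusted p under 0.05. Their estimates ran from -0.082 (Kdm1b) to 0.19 (Morc1), with a median of 0.048, and Cbx5 was the most abundant per kilobase at 55.9 ± 2.71 in WT (SD, n = 3). Of 8 germline transposon defence genes, several of the piRNA pathway, 0 passed and 2 were lower in KO at an unadjusted p under 0.05, as were 3.00% of all tested genes. Tdrd9, a piRNA pathway helicase, had 8.51 ± 1.07 CPM in KO and 13.6 ± 2.75 in WT (log2 change -0.67, SE 0.17, adjusted p = 0.309), and Asz1, a mitochondrial piRNA factor, had 7.72 ± 1.16 CPM in KO and 10.2 ± 1.37 in WT (log2 change -0.40, SE 0.17, adjusted p = 0.776). Tdrd1, a partner of PIWI proteins, had the highest estimate of the list at 0.39, so the list had no common direction (median 0.027). In the RIP table, these 3 lists had 9, 34 and 1 rows, of which 6, 13 and 1 had the higher mean in WT, and 0 passed (limma). At an unadjusted p under 0.05 there were 0, 2 and 1 rows higher in WT, where 5.98% of all tested rows were, and 0, 1 and 0 higher in KO, where 2.88% were. The single germline row was that of Mael.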

How the data were processed

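The members and the gene lists were chosen with earlier results of these data known. Per the file headers, the deposited input counts were made by the authors with featureCounts 1.6.3 over exons of the Ensembl release 104 annotation, with no option for strand, pairs or multiple placements. The submitters' processing notes list BWA 0.7.12, DESeq2 1.26.0, MACS2 2.1.0, FastQC and the build GRCm38, without roles. The deposited RIP values are a linear ratio (fold enrichment) per row, and what the authors divided by is not given in the sources used here.

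Gene names come from the stated list of identifiers. The other list genes were matched by symbol to the RefSeq table (GRCm38.p6) on the same chromosome, within 3 Mb and 2-fold of the gene span, and all of them passed. One item of the first pathway list is not reported here and enters none of its counts. Trim28 has a longer span in the count files than in RefSeq, by a factor of 4.64.

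The count test was that of edgeR 4.0.16 under R 4.3.3 (TMM, filterByExpr, robust quasi-likelihood fit), with DESeq2 1.42.0 as an alternative. RIP ratios were tested with limma 3.58.1 on log2(ratio + 1), each column centred on its median, keeping rows whose mean was at least 1; on this scale differences of low ratios are understated. Both fits used all features, and p-values were adjusted by Benjamini-Hochberg over all of them. Both steps were run on simulated data as a check of the code only. The simulated counts had the same relative spread for every gene, and the simulated ratios had independent rows. Those runs therefore do not measure how well the tests work on the real data. CPM used TMM-scaled library sizes, and intervals are 95%. Replicate pairs differed by more than sampling noise. The labels call the pools biological replicates, and p-values reflect the spread among pools only. Named were all 10 members with their RIP rows, and of each further list the genes with an unadjusted p under 0.05, or else the most abundant and the extremes; marker lists with no such gene are given by their sums, and Dppa3, Tdrd1 and Mael were named after their values were seen. The depth behind the RIP ratios is unknown.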

Additional observations from a re-analysis of the deposited data

How the results depend on the processing

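The count of 0 members called in the input held in the 10 alternatives run (no low-count filter, RLE size factors, DESeq2, the replicate block and each of 6 libraries left out), and the count of 0 member rows called in RIP held in the 12 run for it (pseudocounts of 0.1 and 10, no filter on low values, no centring, quantile normalization, the replicate block and each of 6 libraries left out). The fall of Fmr1 kept its call in all 10, from -1.25 to -0.97 with a library left out. Over all genes of the input, the 10 calls became 113 without the filter on low counts, 37 with DESeq2, 20 with the replicate block, and 5 to 37 with a library left out (37 without KO replicate 1, 28 without WT replicate 2 and 5 without KO replicate 2); the cause was not tested. Over all RIP rows the count of 0 became 1 with no filter on low values, the row being none of the 30. The labels do not say whether a shared replicate number marks a pair. The deviations from the group means of a KO and a WT library with one number had correlations of -0.14, -0.059 and -0.090 for input and -0.60, -0.34 and -0.22 for RIP. Libraries with unlike numbers were not compared in this way, so these values cannot decide whether the numbers pair pools. Estimates of single members, none of them called, changed sign in 7 of 90 input and 17 of 360 RIP values, in each case with a library left out. Their ranges over the libraries left out were, as input log2 changes, -0.029 to 0.0074 (Dnmt3a), -0.032 to 0.10 (Tet2), -0.037 to 0.062 (Tet3), -0.077 to 0.026 (Trim28), -0.018 to 0.21 (Uhrf1). As RIP log2 differences they were -0.27 to 0.69 (Dnmt1 row 1), -0.25 to 0.40 (Dnmt1 row 2), -0.062 to 0.16 (Dnmt1 row 3), -0.10 to 0.30 (Dnmt1 row 4), -0.10 to 0.045 (Dnmt1 row 5), -0.38 to 0.011 (Dnmt1 row 8), -0.15 to 0.035 (Dnmt3a row 2), -0.11 to 0.038 (Dnmt3a row 4), -0.086 to 0.10 (Setdb1 row 1), -0.015 to 0.10 (Setdb1 row 4), -0.12 to 0.066 (Setdb1 row 6), -0.091 to 0.45 (Tet1 row 1). Without a sign change, Setdb1 input ran from 0.094 to 0.17, Dnmt1 row 6 from -0.60 to -0.18, Uhrf1 row 1 from -0.26 to -0.15 and Trim28 row 1 from -0.54 to -0.32. Depth limits Dnmt3l, with 21 reads in all, and 3 libraries per group limit the rest.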
